A study of Mus musculus with 4 samples.

Results

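Hp, Ahsg, Saa3, Lcn2, Cp, Lrg1, Alb, Afp, Apoe and Ttr encode proteins that the liver secretes into blood, among them the acute-phase proteins whose output changes with inflammation. These 10 genes were taken by name from the 55487 annotated genes of a mouse count table, and 7 of them were among the 13230 genes with enough counts to be tested. The RNA was that of LPC-HRas, a line of mouse liver cancer cells, which was grown with fetal serum and left unstimulated. In the cells of the first group UBXN9, a UBX-domain protein encoded by Aspscr1, was overexpressed (n = 2 libraries, UBXN9 1 and UBXN9 2), and the other group held control cells (n = 2 libraries, control 1 and control 2). The labels name no vector, clone or culture for any library, so each p-value covers only the variation among these 4 libraries, which may be technical.

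In an acute-phase response the cytokines interleukin-6 and interleukin-1 signal to hepatocytes through STAT3, NF-kB and the C/EBP transcription factors, and the blood levels of haptoglobin, serum amyloid A and other positive reactants rise. Albumin, transthyretin and fetuin-A are known as negative reactants, whose output falls in that response. Albumin, alpha-fetoprotein and transthyretin are also classical products of hepatocytes or of the fetal liver, and hepatocytes transcribe them with HNF4A, FOXA and C/EBP factors.

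Of the 7 genes tested, Saa3, Ahsg, Hp, Cp and Lcn2 were higher in UBXN9-overexpressing cells, Apoe was lower, and Afp did not pass. Over all 13230 genes, 7.44% were called at an adjusted p under 0.05 (edgeR quasi-likelihood test, Benjamini-Hochberg adjustment over all genes tested), 5.06% higher and 2.38% lower. The 10 genes were chosen with results of these data known, so their 6 calls are a description of these genes. The 3 untested genes, Lrg1, Ttr and Alb, had at most 5 counts in any library. The groups did not overlap in any of the 7 tested genes, as was the case for 50.6% of all genes tested. Added together, the 10 genes stood at 750 and 608 CPM (counts relative to a library's total after TMM scaling) in the UBXN9 libraries, against 257 and 285 CPM in the control libraries. The cells were measured in bulk, so fewer cells expressing a gene and less RNA per cell cannot be told apart.

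The 250 bases before the transcription start of 6 of these genes are shown to let the genes that moved be read beside the silent ones, with the C/EBP and inflammation motifs that lie in them. Sequences are RefSeq's for GRCm38.p6, given 5′ to 3′ on the strand of the gene, with capitals marking motif matches. RefSeq promoters were searched for 8 of the 10 genes. The windows of Lcn2 and Lrg1, which reach more than 30 bases into annotated exons of the gene, are described without their letters. The Saa3 window reaches 24 bases into exons of its gene and is shown. The motifs searched on both strands were TTGCNNAA (C/EBP), TTCNNNGAA (STAT), GGGA and CC with 4 bases between them (NF-kB), and GAAA and GAAA with 2 bases between them (ISRE, the interferon-stimulated response element). No 2 matches shown overlap.
Saa3: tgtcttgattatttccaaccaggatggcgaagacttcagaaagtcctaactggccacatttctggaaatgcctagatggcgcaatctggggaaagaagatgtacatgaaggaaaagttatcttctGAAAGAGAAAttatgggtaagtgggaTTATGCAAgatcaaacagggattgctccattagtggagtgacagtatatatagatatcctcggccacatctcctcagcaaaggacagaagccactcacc
Ahsg: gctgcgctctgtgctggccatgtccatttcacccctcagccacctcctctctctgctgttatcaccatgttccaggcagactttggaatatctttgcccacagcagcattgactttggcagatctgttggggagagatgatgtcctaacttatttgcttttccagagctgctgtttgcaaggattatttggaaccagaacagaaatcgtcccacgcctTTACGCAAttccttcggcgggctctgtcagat
Cp: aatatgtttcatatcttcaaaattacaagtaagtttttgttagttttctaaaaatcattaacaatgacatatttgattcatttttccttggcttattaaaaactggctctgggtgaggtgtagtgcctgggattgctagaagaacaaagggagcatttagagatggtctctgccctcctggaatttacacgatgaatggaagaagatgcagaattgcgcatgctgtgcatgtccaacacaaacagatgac
Apoe: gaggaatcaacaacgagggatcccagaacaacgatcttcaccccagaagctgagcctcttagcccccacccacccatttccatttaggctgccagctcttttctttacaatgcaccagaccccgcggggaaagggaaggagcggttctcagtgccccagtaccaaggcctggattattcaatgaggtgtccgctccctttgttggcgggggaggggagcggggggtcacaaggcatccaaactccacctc
Alb: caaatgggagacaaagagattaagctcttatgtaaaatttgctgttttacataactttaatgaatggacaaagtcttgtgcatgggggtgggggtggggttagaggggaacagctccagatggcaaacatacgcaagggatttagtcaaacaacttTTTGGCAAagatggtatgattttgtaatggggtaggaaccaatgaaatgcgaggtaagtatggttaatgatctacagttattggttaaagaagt
Afp: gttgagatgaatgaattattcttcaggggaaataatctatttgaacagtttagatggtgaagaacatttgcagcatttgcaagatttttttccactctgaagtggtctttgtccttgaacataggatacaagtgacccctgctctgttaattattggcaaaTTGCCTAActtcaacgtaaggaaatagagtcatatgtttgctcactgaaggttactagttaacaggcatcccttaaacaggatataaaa

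The Saa3 window (chr7:46715677-46715926, minus strand) holds a C/EBP match, TTATGCAA, at 99 to 92 bases before the start and an ISRE match, GAAAGAGAAA, at 125 to 116 bases before it. In the Ahsg window (chr16:22891765-22892014, plus strand) the C/EBP match TTACGCAA lies 32 to 25 bases before a start that RefSeq places 738 bases downstream of the earliest GENCODE start. No searched motif matched in the windows of Cp (chr3:19956804-19957053, plus strand) and Apoe (chr7:19699189-19699438, minus strand). The windows of Alb (chr5:90460620-90460869) and Afp (chr5:90490464-90490713), neighbours on the plus strand, each hold a C/EBP match, at 94 to 87 bases before the start in Alb and at 89 to 82 in Afp. The Lcn2 window holds a C/EBP match at 216 to 209 bases before the start, and no searched motif matched in the Lrg1 window. Of 32851 promoter windows of the same length, 9.56% held the C/EBP letters, 7.02% the STAT letters, 17.6% the NF-kB letters and 2.98% the ISRE letters. These matches describe letters in the windows and do not show binding.

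Depth and labels were checked first. Library totals ran from 21814969 to 26292686 estimated counts. Aspscr1 (ENSMUSG00000025142) had 392 and 380 CPM in the UBXN9 libraries, against 92.1 and 115 CPM in the control libraries, a log2 fold change of 1.90 (SE 0.18, edgeR adjusted p = 0.00144). Rn7sk, which lacks polyadenylation, gave 5.48 and 26.4 CPM in the UBXN9 libraries and 1.68 and 2.31 CPM in the control libraries, and its part in the results below was not tested. Defining markers of hepatocytes were nearly absent: 5 of 10, Alb, Cyp3a11, G6pc, Pck1 and Tat, were at 0 in all 4 libraries, and the 10 summed to 2.24 and 2.34 CPM in the UBXN9 libraries, against 2.29 and 2.77 CPM in the control libraries. Progenitor and biliary markers summed to 3193 and 3454 CPM in the UBXN9 libraries and to 2944 and 2672 CPM in the control libraries, most of it Spp1, the gene of osteopontin.

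**Figure D1:**
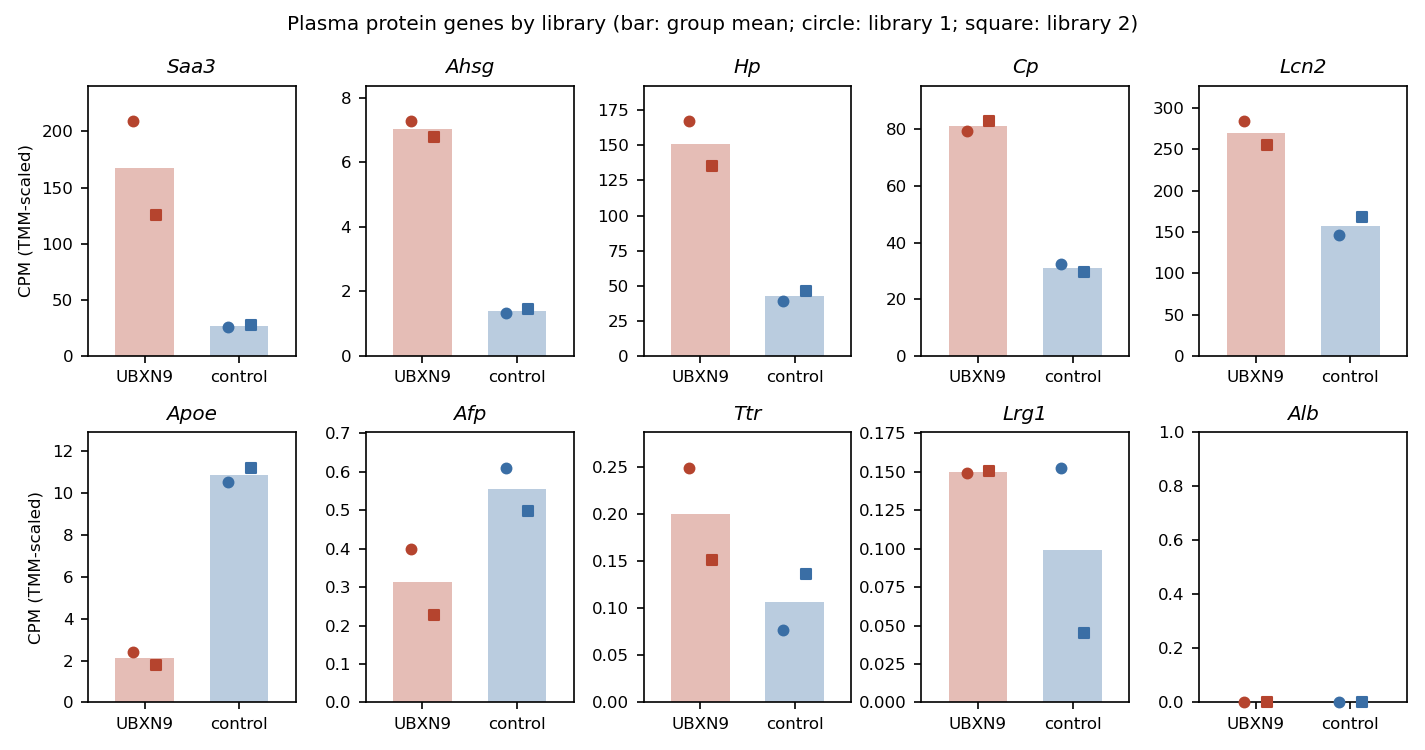
CPM of the 10 genes in each library, with a bar for the mean of the n = 2 libraries of a group, a circle for library 1 and a square for library 2; each panel has its own axis, starting at 0. Saa3, Ahsg, Hp, Cp and Lcn2 lie higher in both UBXN9 libraries than in both control libraries, Apoe and Afp lie lower, and Alb is at 0 throughout.

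Saa3 showed the largest rise of the 10 genes. The gene (ENSMUSG00000040026, chromosome 7, 46711998 to 46715700, minus strand, GRCm38) encodes serum amyloid A3, an acute-phase apolipoprotein that in the mouse is made in many tissues and in macrophages. It had 209 and 125 CPM in the UBXN9 libraries, against 25.9 and 27.5 CPM in the control libraries. Both UBXN9 libraries lay far above both controls, and UBXN9 1 was the higher of its group. The fitted change was 6.25-fold (log2 2.64, SE 0.26, edgeR adjusted p = 0.00178), between 4.70-fold and 7.83-fold as each library was left out.

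Hp and Cp encode plasma proteins of haem and metal handling. Hp (ENSMUSG00000031722, chromosome 8, 109575128 to 109579172, minus strand) makes haptoglobin, which binds free haemoglobin. It had 167 and 135 CPM in the UBXN9 libraries, against 39.3 and 46.2 CPM in the control libraries. All of the UBXN9 values were above the controls, and the rise was 3.54-fold (log2 1.82, SE 0.18, edgeR adjusted p = 0.00187). Cp (ENSMUSG00000003617, chromosome 3, 19957054 to 20009145, plus strand) makes ceruloplasmin, the copper-carrying ferroxidase. It had 79.3 and 82.9 CPM in the UBXN9 libraries, against 32.3 and 29.7 CPM in the control libraries. The libraries of each group lay close together, and the rise was 2.62-fold (log2 1.39, SE 0.16, edgeR adjusted p = 0.00343). Exons of Cp overlap those of Hps3 on the opposite strand. Hps3 had 6.37 and 8.97 CPM in the UBXN9 libraries and 6.60 and 5.72 CPM in the control libraries, strand handling is not stated, and the part of Hps3 reads in the Cp values was not tested.

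Lcn2 and Ahsg moved the same way from very different levels. Lcn2 (ENSMUSG00000026822, chromosome 2, 32384633 to 32388252, minus strand) makes lipocalin-2, which binds iron-carrying siderophores of bacteria. It had 284 and 256 CPM in the UBXN9 libraries, against 146 and 168 CPM in the control libraries. Both UBXN9 libraries lay above both controls. The rise of 1.72-fold was the smallest called rise among the 10 genes (log2 0.78, SE 0.16, edgeR adjusted p = 0.0352), and the adjusted p was 0.407 without control 1 and 0.199 without control 2. Ahsg (ENSMUSG00000022868, chromosome 16, 22891277 to 22899449, plus strand) makes fetuin-A, a mineral-binding glycoprotein that is a negative reactant in the acute phase. It had 7.27 and 6.79 CPM in the UBXN9 libraries, against 1.34 and 1.45 CPM in the control libraries, or 146 and 180 counts against 35 and 32. The replicates nearly coincided in each group, and the rise was 5.03-fold (log2 2.33, SE 0.28, edgeR adjusted p = 0.00434). Gm30505, whose exons overlap those of Ahsg on the opposite strand, had 1 count in UBXN9 2 and 0 in the other libraries.

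Apoe was the gene that fell. It (ENSMUSG00000002985, chromosome 7, 19696109 to 19699188, minus strand) encodes apolipoprotein E, the ligand by which lipoprotein particles are taken up through the LDL receptor family. Apoe had 2.39 and 1.81 CPM in the UBXN9 libraries, against 10.5 and 11.2 CPM in the control libraries, or 48 and 48 counts against 276 and 247. Both UBXN9 libraries lay far below both controls. The log2 fold change was -2.38 (SE 0.27, edgeR adjusted p = 0.00358), a level 5.19-fold lower in UBXN9-overexpressing cells. Its log2 value ran from -2.58 to -2.18 over the 12 alternative settings, and the call held in each of them.

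The hepatocyte products were barely detected or silent. Afp, the gene of alpha-fetoprotein, had 8 and 6 counts in the UBXN9 libraries, against 16 and 11 counts in the control libraries, which is 0.398 and 0.226 CPM against 0.611 and 0.499 CPM. Its log2 fold change of -0.85 had an SE of 0.60 and did not pass (edgeR adjusted p = 0.481). Afp entered the test through its control counts alone. Ttr, which makes the thyroid hormone and retinol carrier transthyretin, had 5 and 4 counts in the UBXN9 libraries and 2 and 3 in the control libraries. Lrg1, the gene of a leucine-rich glycoprotein of the acute phase, had 3 and 4 counts in the UBXN9 libraries and 4 and 1 in the control libraries, so its groups overlapped. Alb had 0 counts in all 4 libraries, where a floor of 3 counts allows a level of up to 0.149 and 0.113 CPM in the UBXN9 libraries and 0.114 and 0.136 CPM in the control libraries. At this depth a difference in Ttr, Lrg1 or Alb was not detectable.

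Levels were compared between genes as CPM per kilobase of annotated exon. In UBXN9-overexpressing cells the order was Lcn2 with 103, Hp with 94.2, Saa3 with 64.2, Cp with 8.48, Ahsg with 3.20 and Apoe with 0.982 CPM per kilobase. The ranges of Lcn2 and Hp overlapped there, with 97.5 to 108 for Lcn2 and 84.3 to 104 for Hp, and so did those of Lrg1 and Afp. In control cells the order was Lcn2 with 59.9, Hp with 26.6, Saa3 with 10.3, Apoe with 5.08, Cp with 3.24 and Ahsg with 0.634 CPM per kilobase, and of the neighbouring ranges those of Ttr and Lrg1 overlapped. Per kilobase, Apoe thus stood above Cp and Ahsg in control cells and below both in UBXN9-overexpressing cells. These orders, and the percentiles below, depend on the exon lengths used. In CPM, Apoe was below Cp in control cells too, with 10.5 and 11.2 against 32.3 and 29.7 CPM. The switch between Apoe and Ahsg was also seen in CPM. In UBXN9-overexpressing cells Saa3 had 209 and 125 CPM and Hp 167 and 135 CPM, so their ranges overlapped. Among all genes tested, the level per kilobase of Saa3 was at percentile 92.9 in UBXN9-overexpressing cells and 66.2 in control cells, that of Hp at 95.2 and 83.5, that of Ahsg at 41.6 and 17.9, and that of Apoe at 22.6 and 51.3.

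**Figure D2:**
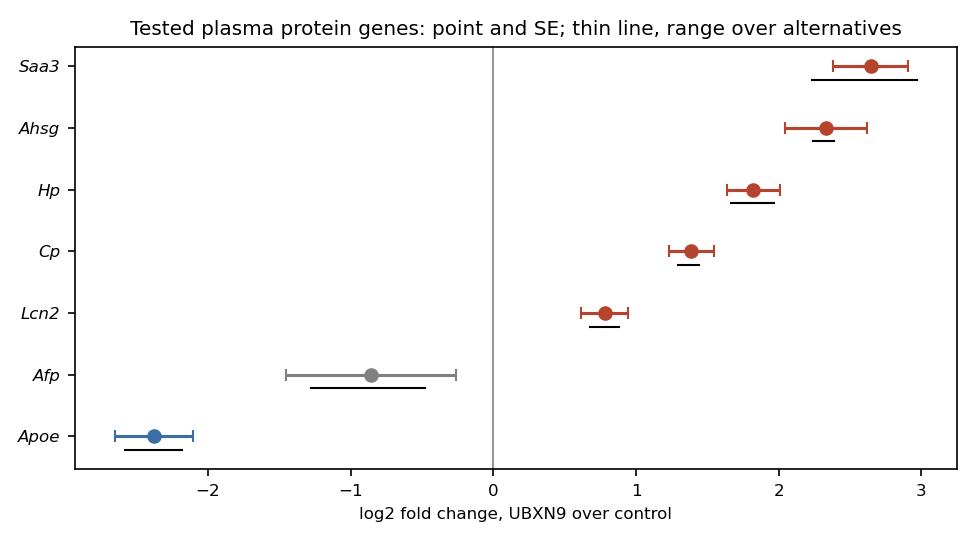
Log2 fold change, UBXN9 over control, of the 7 tested genes, with the SE of the fit as an error bar and, under it, a thin line for the range over the alternative settings. Saa3 to Lcn2 lie above 0 and Apoe below it; the error bar of Afp is the longest, with an SE of 0.60.

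Other acute-phase genes gave 4 of 9 tested genes higher and 0 lower in edgeR, which is 44.4% of them called, against 7.44% of all genes tested. This list and those below were chosen with earlier results of these data known, so their shares called are a description of the lists. Ptx3 and Hpx entered the test through their UBXN9 counts alone. The 7 genes left without them had 3 higher, 0 lower and a median log2 fold change of 0.66. The 12813 genes that entered through both groups had 565 higher, 273 lower and a median of -0.0065. Over all genes tested the median was -0.0056. At an unadjusted p under 0.05 the counts were 6 higher and 1 lower of the 9, where all genes tested gave 12.3% higher and 9.25% lower. DESeq2 called 5 higher and 0 lower, and limma-voom 4 and 0. C3, the central complement component, had 87.2 and 86.8 CPM in the UBXN9 libraries, against 46.3 and 42.1 CPM in the control libraries (log2 0.98, SE 0.15, edgeR adjusted p = 0.0121). Mt2, a metallothionein that binds zinc and copper, had 1059 and 695 CPM in the UBXN9 libraries, against 357 and 420 CPM in the control libraries (log2 1.18, SE 0.24, edgeR adjusted p = 0.0339), with exons that overlap Gm45774 on the opposite strand. Serpina3n, a protease inhibitor of the acute phase, had 25.0 and 31.1 CPM in the UBXN9 libraries, against 15.0 and 15.2 CPM in the control libraries (log2 0.89, SE 0.20, edgeR adjusted p = 0.0412). Ptx3, a pattern-recognition pentraxin, had 28 and 25 counts in the UBXN9 libraries, against 2 and 2 counts in the control libraries (log2 3.72, SE 0.64, edgeR adjusted p = 0.0168). Each of these 4 calls was lost without control 1 and without control 2, which left 0 genes of the list higher in either setting, with adjusted p values between 0.0532 and 0.281 for the 4 genes. Of the 30 genes 11 were at 0 in every library, among them Crp, Apcs, Saa1 and the fibrinogen genes Fga, Fgb and Fgg, which were picked from the list after their values were seen.

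Further plasma protein genes did not share a direction. Of 40 genes 11 could be tested, with 1 called higher and 2 lower and a median over the list of -0.28 on the log2 scale. That is 27.3% of the tested genes called, against 7.44% of all genes. Trf, the gene of the iron carrier transferrin, had 295 and 237 CPM in the UBXN9 libraries, against 945 and 1122 CPM in the control libraries (log2 -1.96, SE 0.21, edgeR adjusted p = 0.00234). Exons of Trf overlap those of Gm20425 on the same strand, and the part of that overlap in the Trf values was not tested. Angptl4, which makes an inhibitor of lipoprotein lipase, had 15.4 and 11.5 CPM in the UBXN9 libraries, against 31.3 and 38.6 CPM in the control libraries (log2 -1.38, SE 0.22, edgeR adjusted p = 0.0133, and 0.0615 without control 2). Itih2, a heavy chain of the inter-alpha-trypsin inhibitor, had 3.48 and 3.996 CPM in the UBXN9 libraries, against 1.45 and 1.45 CPM in the control libraries. Its log2 fold change was 1.36 (SE 0.31, edgeR adjusted p = 0.0479), and the call was lost in 7 of 11 alternatives, and its adjusted p was 0.258 when control 1 was left out and 0.298 when control 2 was. The share of all genes called higher and lower was 3.71% and 1.43% without control 1, 2.69% and 0.974% without control 2, 11.6% and 6.84% without UBXN9 1, and 10.9% and 9.78% without UBXN9 2. Without control 2 the list had 0 higher and 1 lower, without control 1 it had 0 higher and 2 lower, without UBXN9 1 it had 1 higher and 4 lower, and without UBXN9 2 it had 2 higher and 3 lower. Clu, the gene of clusterin, chosen after its values were seen, had 2614 and 2603 CPM in the UBXN9 libraries and 2548 and 2520 CPM in the control libraries, and it did not pass (edgeR adjusted p = 0.943). Of the 40 genes 15 were at 0 in every library.

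**Figure D3:**
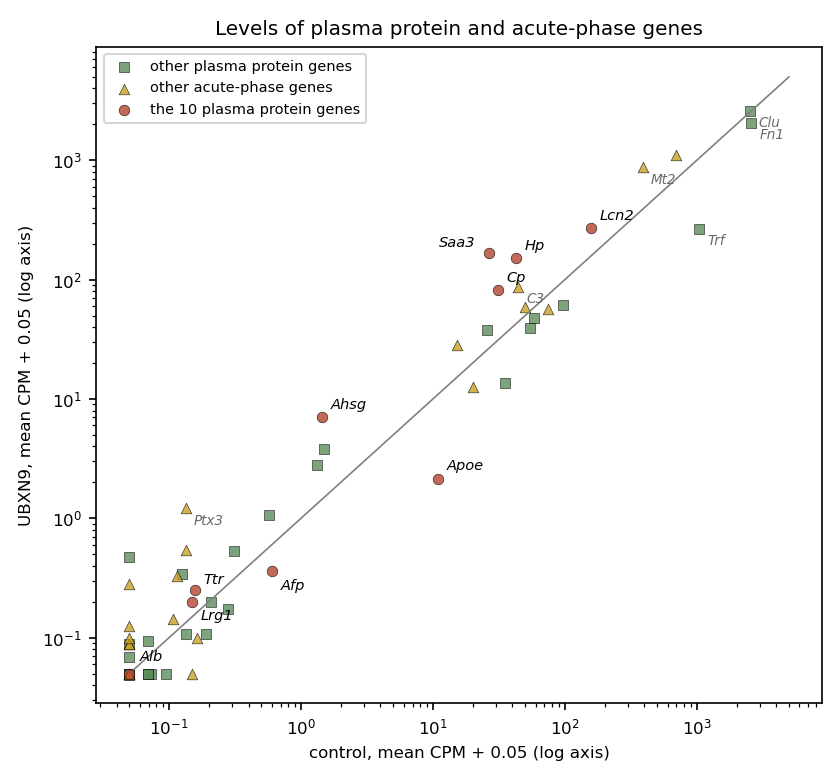
Mean CPM plus 0.05 of the 10 genes and of the other plasma protein and acute-phase genes, UBXN9 on the vertical and control on the horizontal log axis, n = 2 libraries per group; the line marks equal levels. Saa3, Hp, Cp and Ahsg lie above the line, Apoe and Trf lie below it, Clu lies near it, and Alb lies at the lower left corner, where genes with 0 counts fall.

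Signals that drive acute-phase genes were next described. Of 30 ligands, receptors and transcription factors 27 were tested, with 7 called higher, 1 lower and a median of 0.36 on the log2 scale. Il1a entered the test through its UBXN9 counts alone and did not pass, and the 26 genes left without it had the same calls and a median of 0.36. Of the 27 tested genes 29.6% were called, against 7.44% of all genes. Lif, a ligand of the interleukin-6 family, had 281 and 259 CPM in the UBXN9 libraries, against 140 and 159 CPM in the control libraries (log2 0.85, SE 0.16, edgeR adjusted p = 0.023, with 0.297 without control 1 and 0.144 without control 2). Cebpb, a C/EBP factor of acute-phase genes, had 308 and 248 CPM in the UBXN9 libraries, against 96.8 and 134 CPM in the control libraries (log2 1.26, SE 0.21, edgeR adjusted p = 0.0157, and 0.065 without control 1). Tmem189, whose exons overlap those of Cebpb on the opposite strand, had 70.7 and 68.5 CPM in the UBXN9 libraries and 58.0 and 63.8 CPM in the control libraries.

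Myd88, the adaptor of interleukin-1 and Toll-like receptors, had 122 and 103 CPM in the UBXN9 libraries, against 41.5 and 48.9 CPM in the control libraries (log2 1.31, SE 0.17, edgeR adjusted p = 0.00606). Socs1, a feedback inhibitor of cytokine signalling, had 49.5 and 42.8 CPM in the UBXN9 libraries, against 17.8 and 19.4 CPM in the control libraries (log2 1.31, SE 0.18, edgeR adjusted p = 0.00619). Acaa1a overlaps Myd88 on the opposite strand at 162 and 144 CPM in the UBXN9 libraries and 88.8 and 112 CPM in the control libraries, so reads of these genes may be mixed. Named after their values were seen, other called genes were Tnf and Jak1, which rose 3.64-fold and 1.73-fold, and Il1r1, the interleukin-1 receptor, which had 27.3 and 33.0 CPM in the UBXN9 libraries, against 63.2 and 53.5 CPM in the control libraries (log2 -0.95, SE 0.18, edgeR adjusted p = 0.0253). Tnf, Jak1 and Il1r1 did not pass without control 1 (adjusted p = 0.112, 0.141 and 0.161) or without control 2 (adjusted p = 0.146, 0.373 and 0.0632). The counts of the list were 5 higher and 0 lower without control 1, 4 and 0 without control 2, 13 and 1 without UBXN9 1, and 10 and 2 without UBXN9 2, while all genes gave 373 higher and 135 lower without control 2 and 1611 higher and 950 lower without UBXN9 1. Also named after their values were seen, Il6 had 3.19 and 3.02 CPM in the UBXN9 libraries, against 0.801 and 0.0907 CPM in the control libraries (edgeR adjusted p = 0.0669), and Stat3 had 278 and 313 CPM in the UBXN9 libraries and 240 and 231 CPM in the control libraries (edgeR adjusted p = 0.297).

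Of 17 liver transcription factor genes 8 had enough counts to be tested. In that list 1 rose and 0 fell in edgeR, 12.5% of the tested genes against 7.44% of all genes, with 3 higher and 0 lower at an unadjusted p under 0.05, 1 and 0 in DESeq2, and 1 and 0 in limma-voom, and the median log2 fold change was 0.37. Without UBXN9 1, 2 rose, where 11.6% of all genes did. Cebpa, the C/EBP factor of mature hepatocytes, had 16.6 and 17.1 CPM in the UBXN9 libraries, against 5.30 and 6.35 CPM in the control libraries (log2 1.53, SE 0.22, edgeR adjusted p = 0.00892). Foxa2, a FOXA pioneer factor of the liver, had 50.5 and 45.7 CPM in the UBXN9 libraries and 45.2 and 48.3 CPM in the control libraries (edgeR adjusted p = 0.931), and the sign of its difference turned under upper-quartile scaling, without composition factors, without control 1 and without UBXN9 1. Rxra, a nuclear receptor partner, had 61.5 and 66.2 CPM in the UBXN9 libraries and 66.7 and 73.3 CPM in the control libraries (edgeR adjusted p = 0.703). Hnf4a, a nuclear receptor of hepatocytes picked after its values were seen, had 0 counts in both UBXN9 libraries and 1 and 0 counts in the control libraries.

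Genes that handle apolipoprotein E and its particles showed 1 of 19 tested genes higher and 0 lower in edgeR, with a median log2 fold change of 0.35. The share called, 5.26%, was below the 7.44% of all genes tested. At an unadjusted p under 0.05 there were 6 higher and 2 lower of the 19, where all genes gave 12.3% higher and 9.25% lower. DESeq2 called 3 higher and 1 lower, limma-voom 1 and 0, and leaving out UBXN9 1 or UBXN9 2 gave 6 higher and 1 lower or 4 higher and 3 lower, where all genes gave 11.6% and 6.84% or 10.9% and 9.78%. Abca1, which loads cholesterol onto lipid-poor apolipoproteins, had 6.52 and 10.8 CPM in the UBXN9 libraries, against 2.02 and 1.59 CPM in the control libraries (log2 2.26, SE 0.35, edgeR adjusted p = 0.011). Npc2, a carrier of cholesterol in lysosomes, had 1014 and 755 CPM in the UBXN9 libraries, against 474 and 545 CPM in the control libraries, and did not pass (edgeR adjusted p = 0.0732). Srebf2, the regulator of cholesterol synthesis, had 614 and 731 CPM in the UBXN9 libraries and 738 and 770 CPM in the control libraries (edgeR adjusted p = 0.678).

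Receptors and partners of the 10 proteins had 2 of 10 tested genes higher (5.06% of all genes were) and 0 lower (2.38% of all genes were) in edgeR, with 2 higher and 1 lower at an unadjusted p under 0.05, 2 and 0 in both DESeq2 and limma-voom, and a median log2 fold change of -0.14. Hmox1, the enzyme that degrades the haem cleared with haptoglobin, had 207 and 160 CPM in the UBXN9 libraries, against 71.1 and 86.0 CPM in the control libraries (log2 1.22, SE 0.19, edgeR adjusted p = 0.0122). Tlr4, a receptor that serum amyloid A can engage, had 12.3 and 12.9 CPM in the UBXN9 libraries, against 6.91 and 5.72 CPM in the control libraries (log2 1.00, SE 0.23, edgeR adjusted p = 0.0488), and did not pass without control 1 (adjusted p = 0.167) or control 2 (adjusted p = 0.454), which left 1 gene higher. The calls of the list moved with the library left out, as did the shares of all genes called, which are given above for each such setting.

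**Figure D4:**
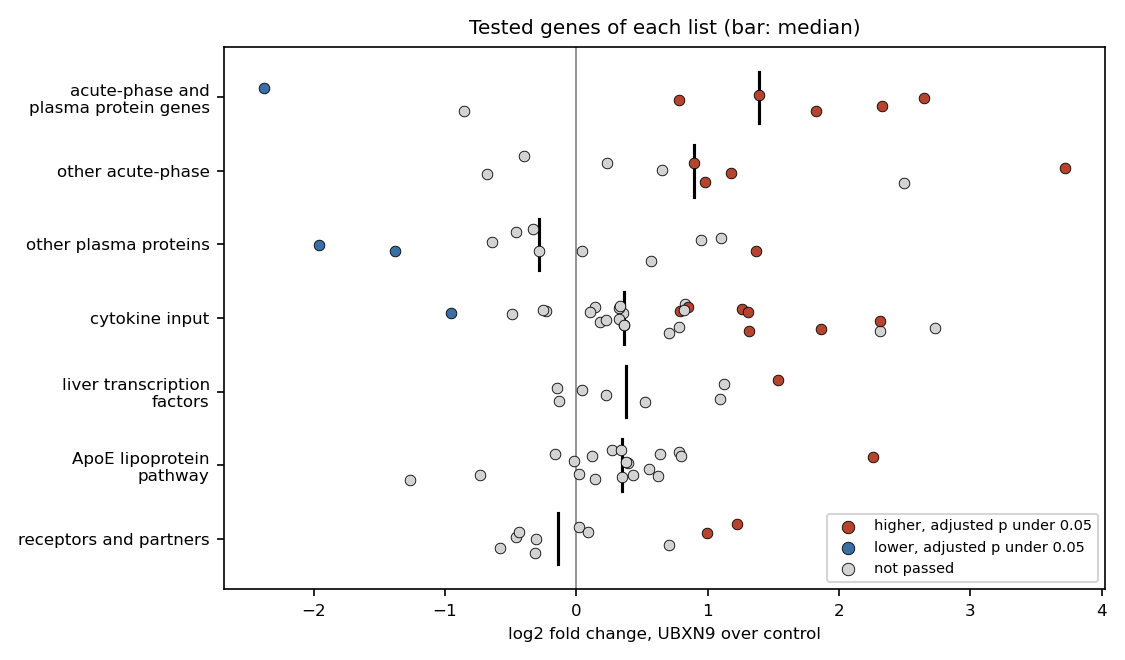
Log2 fold change, UBXN9 over control, of the tested genes of each list, 1 point per gene, coloured by whether the adjusted p was under 0.05; the black bar is the median of the tested genes. The acute-phase and plasma protein genes have 5 points called higher and 1 called lower, and in each of the other lists most points are grey.

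Position was examined because several of these genes sit in families along the chromosome. Within 100 kb of the 6 called genes lay 41 protein-coding genes, of which 26 were tested, and 1 of them passed (3.85%, against 7.44% of all genes tested). That gene was Relb, an NF-kB subunit on the Apoe side of chromosome 7, with 116 and 118 CPM in the UBXN9 libraries and 71.7 and 75.0 CPM in the control libraries (log2 0.67, SE 0.15, edgeR adjusted p = 0.0407, with 0.44 without control 1 and 0.363 without control 2). The other tested neighbours had log2 fold changes between -0.58 and 0.57.

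The relatives next to Saa3, namely Saa1, Saa2 and Saa4, had between 0 and 0.415 CPM in every library, and Saa1 and Saa2 are close copies whose reads may be split between them. Fetub, the fetuin gene beside Ahsg, had 39.0 and 36.8 CPM in the UBXN9 libraries, against 24.7 and 26.3 CPM in the control libraries, and did not pass (log2 0.57, SE 0.16, edgeR adjusted p = 0.0941). Apoc1, Apoc2 and Apoc4, the apolipoprotein genes beside Apoe, had at most 0.267 CPM in any library, and Tomm40, the mitochondrial import gene on its other side, had 172 and 139 CPM in the UBXN9 libraries and 151 and 191 CPM in the control libraries (edgeR adjusted p = 0.762). These neighbours were picked after their values were seen.

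**Figure D5:**
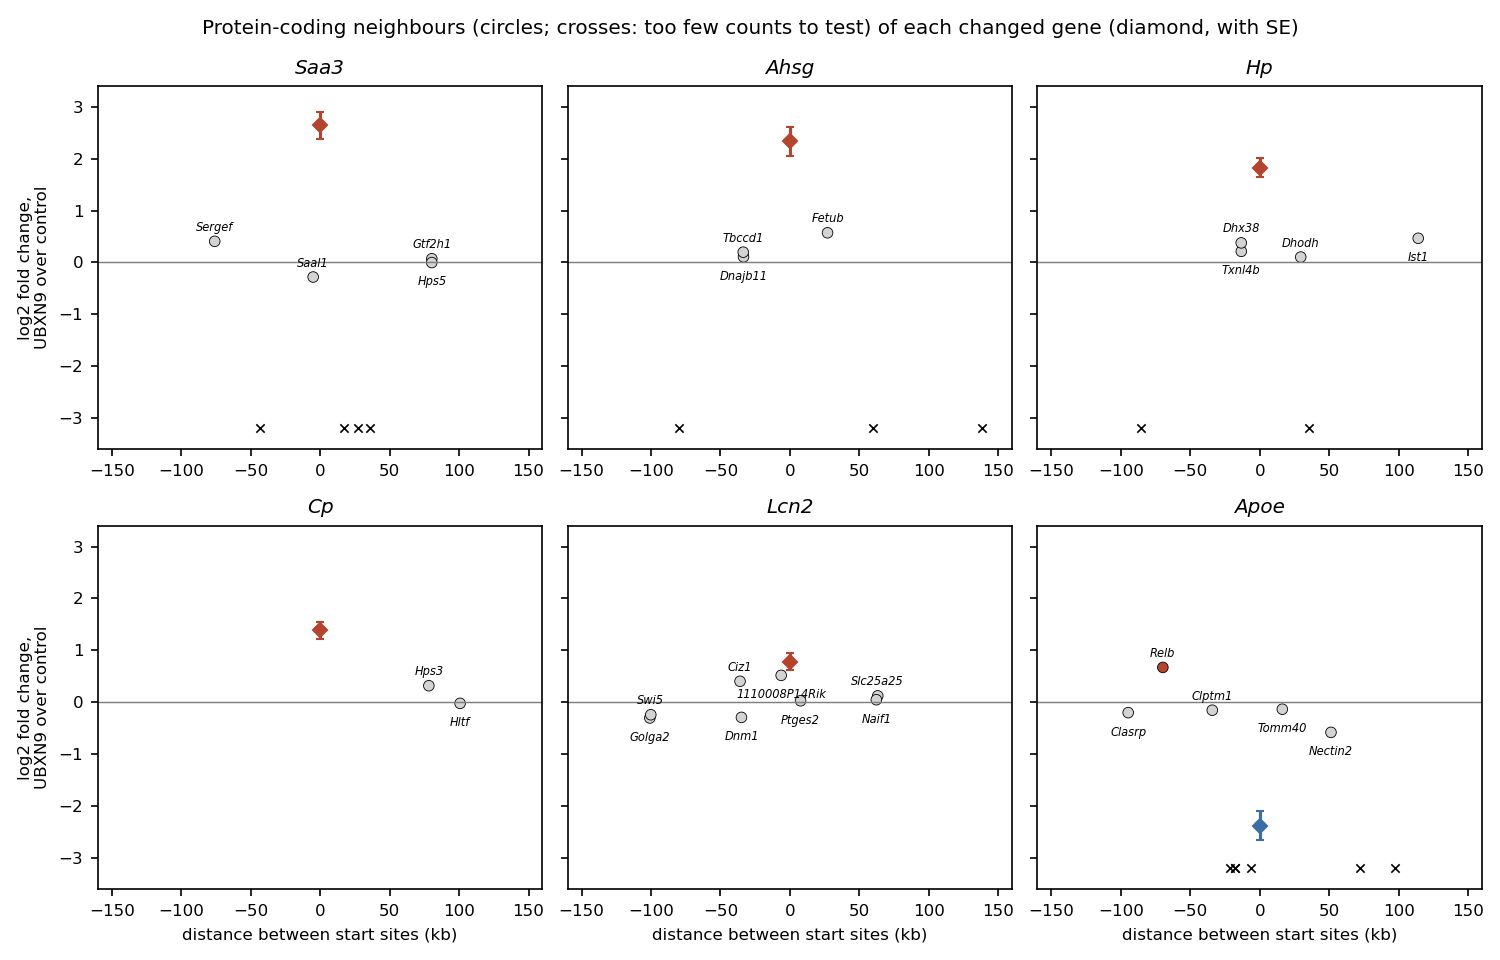
Log2 fold change, UBXN9 over control, of the 6 called genes (diamonds, with the SE as error bar) and of protein-coding neighbours within 100 kb (circles), against the distance along the chromosome between start sites in kb; crosses mark neighbours with too few counts to test and have no value. Apart from Relb, coloured beside Apoe, the circles are grey, with log2 values between -0.58 and 0.57.

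Saa3, Lcn2, Hp and C3 are also made by myeloid cells, so markers of other cell types were set beside them. The 10 myeloid markers summed to 74.2 and 66.1 CPM in the UBXN9 libraries, against 56.7 and 57.1 CPM in the control libraries, most of it Cd14. Csf1r, a receptor of macrophages, had 56 and 8 counts in the UBXN9 libraries and 12 and 14 in the control libraries, Itgam had 6 and 1 in the UBXN9 libraries and 1 and 0 in the control libraries, and Adgre1 had 4 and 0 in the UBXN9 libraries and 0 in the control libraries. These 3 were highest in UBXN9 1, which was also the library with the most Saa3, and were named after their values were seen. Itgam and Adgre1 rest on few counts. Cd68 of the same list was instead highest in UBXN9 2. It had 5.72 and 6.52 CPM in the UBXN9 libraries and 5.07 and 5.53 CPM in the control libraries. The leukocyte gene Ptprc had 3 and 1 counts in the UBXN9 libraries and 0 in the control libraries, S100a8 and Clec4f were at 0 in all libraries, and Lyz2, the lysozyme gene of macrophages, had 3.14 and 3.09 CPM in the UBXN9 libraries, against 1.11 and 0.635 CPM in the control libraries (edgeR adjusted p = 0.0408, and 0.283 without control 2). The 9 lymphoid markers summed to at most 0.249 CPM in any library, with Cd3e, Cd8a and Ncr1 at 0. Endothelial markers summed to 4.58 and 3.996 CPM in the UBXN9 libraries and to 3.05 and 2.04 CPM in the control libraries, and erythroid markers to 3.48 and 2.60 CPM in the UBXN9 libraries and to 1.53 and 1.63 CPM in the control libraries. Stellate and fibroblast markers summed to 594 and 710 CPM in the UBXN9 libraries and to 525 and 474 CPM in the control libraries, with Reln at 0. Their part in the results was not tested.

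Genes with the most similar profile were sought for the largest rise and the fall. The measure was the root mean square difference in log2 CPM, centred on each gene's mean, over the 4 libraries, among 10153 other genes whose group with more reads averaged 5 CPM or above and that had a count in each library. For Saa3 the nearest were Slfn2 (0.11), Psmb10 (0.13) and Ifi211 (0.15). For Apoe they were Prss12 (0.045) and Selp (0.080). Over 4 libraries a like fold change alone brings a profile near, and shared regulation was not tested. Slfn2, the nearest to Saa3, had 197 and 125 CPM in the UBXN9 libraries, against 25.9 and 22.8 CPM in the control libraries, and Prss12, the nearest to Apoe, had 1.29 and 0.980 CPM in the UBXN9 libraries, against 5.95 and 6.53 CPM in the control libraries.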

How the data were processed

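RNA of 4 libraries was made with the TruSeq RNA Sample Prep Kit v2 and sequenced on a HiSeq, per the labels' protocols. The deposited table holds estimated counts for each gene with no scaling between libraries; HISAT2 2.1.0, HTSeq and GRCm38.p6 are named in the submitters' processing notes. The annotation and strand handling are not given in the sources used here. Values were rounded to whole counts. The 241 of 55728 entries outside the annotation were left out, with 0.302% to 0.535% of a library's counts. Of 55487 annotated genes 55227 were found in GENCODE M21 (GRCm38), which gave symbols, positions and exon lengths; Tf was found as Trf through RefSeq synonyms.

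UBXN9 and control libraries were tested against each other in edgeR 4.0.16 (R 4.3.3; TMM factors, filterByExpr, quasi-likelihood F test, two-sided), adjusted over all genes tested at 0.05. SE is the log2 fold change divided by the square root of F. The procedure was tested on simulated data, with an outcome that is not reported here. With 2 libraries a group, the smallest two-sided p of an exact permutation test is 0.333. Other settings were no filter, RLE or upper-quartile factors, composition factors left out, 5 CPM in 2 libraries, DESeq2 1.42.0, limma-voom (limma 3.58.1), a replicate block and leaving out each library; a lone library is then assumed to vary like the other group. Figures were drawn with matplotlib 3.10.9.

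The genes and lists were chosen with earlier results of these data known. Named were the 10 genes, Aspscr1, up to 5 called genes of each list by p, the 2 most abundant tested genes of a list with fewer than 2 calls, marker lists by their sums, and the 3 nearest profiles to the largest rise and fall. A few of these genes are not reported here. Floors cover counting error only.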

Additional observations from a re-analysis of the deposited data

How the results depend on the processing

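The calls of Saa3, Ahsg, Hp, Cp and Apoe held in all 12 alternatives, while that of Lcn2 was lost with a replicate block (adjusted p = 0.101) and without either control. The block makes no design pairing: deviations of same-numbered libraries had a correlation of -0.609 over 10159 genes. With the block 640 genes were higher and 292 lower, 4 of the 10 genes were higher and 1 lower, other plasma proteins had 0 higher, and receptors and partners 1 higher. A crossed block, chosen after seeing the data, gave 1776 higher and 1361 lower. Leaving out 1 library gave 373 to 1611 genes higher and 135 to 1318 lower, 4 to 5 and 1 to 1 of the 10 genes, 0 to 5 and 0 to 1 other acute-phase genes, 0 to 2 and 1 to 4 other plasma proteins, 4 to 13 and 0 to 2 of the cytokine input, 1 to 2 and 0 to 0 liver factors, 1 to 6 and 0 to 3 of the apolipoprotein E pathway, and 1 to 2 and 0 to 1 receptors and partners. With no filter, 1144 genes were higher and 683 lower, with 2 other plasma proteins and 11 of the cytokine input higher, and 3 higher and 2 lower of the apolipoprotein E pathway. DESeq2 gave 3 higher and 1 lower of that pathway. Other plasma proteins had 0 higher under upper-quartile scaling, no composition factors, the 5 CPM filter, DESeq2 and limma-voom, and receptors and partners had 1 higher under the first 3 of these. Without composition factors 0 genes of the cytokine input were lower. Foxa2, which did not pass, changed sign, with log2 values of -0.012 (upper-quartile), -0.051 (no composition factors), -0.013 (without control 1) and -0.032 (without UBXN9 1), and a range from -0.032 to 0.11 over the libraries left out. No scaling moved the median of all genes by more than 0.090. Of 511 single-gene values under other settings, 454 stayed on their side of the threshold in the same direction, 50 lost it, 3 gained it and 4, those of Foxa2, changed sign. The cause of these changes was not tested. Depth limits Ttr, Lrg1, Alb and Afp, which had at most 16 counts in any library.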

Other observations

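A few markers of other cell identities changed, while most tested members of their lists did not pass. Of 6 tested stellate and fibroblast markers 2 were higher and 0 lower, which is 33.3% called, against 7.44% of all genes tested. Col1a1, a collagen gene, had 109 and 144 CPM in the UBXN9 libraries, against 30.3 and 24.9 CPM in the control libraries (log2 2.20, SE 0.21, edgeR adjusted p = 0.00136), and Acta2, the gene of smooth muscle actin, had 46.6 and 38.9 CPM in the UBXN9 libraries, against 17.7 and 17.8 CPM in the control libraries (log2 1.27, SE 0.18, edgeR adjusted p = 0.00784). Col3a1, another collagen gene, had 225 and 269 CPM in the UBXN9 libraries and 287 and 257 CPM in the control libraries (log2 -0.14, SE 0.17, edgeR adjusted p = 0.711), and Des, the desmin gene, did not pass either (log2 -0.47, SE 0.54, edgeR adjusted p = 0.689). Of 6 tested progenitor and biliary markers 0 were higher and 2 lower, which is also 33.3% called, against 7.44% of all genes tested. Afp, among these 6, entered the test through its control counts alone and did not pass. The biliary keratin gene Krt19 had 3.29 and 2.15 CPM in the UBXN9 libraries, against 7.06 and 10.4 CPM in the control libraries (log2 -1.69, SE 0.34, edgeR adjusted p = 0.0294, and 0.143 without control 2). Cd24a, a surface glycoprotein gene of progenitor cells, had 28.4 and 26.7 CPM in the UBXN9 libraries, against 58.6 and 55.6 CPM in the control libraries (log2 -1.05, SE 0.16, edgeR adjusted p = 0.0102, and 0.0523 without control 2). Sox9 and Spp1 of the same list lay the other way and did not pass, with log2 fold changes of 0.23 (SE 0.15, edgeR adjusted p = 0.447) and 0.29 (SE 0.20, edgeR adjusted p = 0.478). These genes were picked from the marker lists after their values were seen.

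A few plasma protein genes had counts in a single group and were too shallow to test. They were picked for 0 counts in both libraries of a group and at least 5 counts in the other group. A difference between the groups was thus fixed by that choice. Kng1, the gene of kininogen, had 11 and 8 counts in the UBXN9 libraries and 0 in both control libraries. Its bound, with the controls together set at 3 counts, is 6.56-fold higher. Saa2 had 1 and 11 counts in the UBXN9 libraries and 0 in both control libraries, with nearly all of its counts in UBXN9 2. Serpina1b had 0 counts in both UBXN9 libraries and 4 and 1 in the control libraries. For Saa2 without UBXN9 2, and for Serpina1b without control 1, 1 count is left, so no bound is given. The bound for Kng1 covers only the counting error of the control libraries, and that of its UBXN9 counts is not covered.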
